A study of Mus musculus with 24 samples.

Results

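The mRNA levels of 32 genes of cholesterol synthesis, uptake and efflux were followed around the clock in mouse liver. The genes were chosen by name, and all 32 were found among the 54733 genes listed for each library. Each of them had a mean of at least 1 FPKM (fragments scaled to transcript length and to the fragments mapped in the library) over the 24 libraries, so that all 32 were among the 11244 genes tested. They comprised 20 enzyme genes from acetyl-CoA to cholesterol, 4 genes of SREBP control, 4 of sterol transport and uptake, and 4 of LXR signalling, esterification and efflux.

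The libraries came from poly(A) RNA of livers of male C57BL/6 mice. WT livers and livers of homozygous delta-RRE mice (ΔRRE), from which the RRE elements of the Bmal1 5′-UTR region had been deleted with CRISPR-Cas9, were taken at CT2, CT6, CT10, CT14, CT18 and CT22, with 2 livers per genotype and time point. CT is circadian time in hours. The mutation was in the germline, present in every tissue, and by the study's methods 1 mouse line was used unless stated otherwise. For tissue RNA in general, the methods give male mice aged 8 to 24 wk, with collection starting 26 h into constant darkness, and they do not repeat this for the sequenced livers. The comparisons ask how these genes cycled over the day, and whether they differed when Bmal1 was no longer transcribed rhythmically. Bmal1 mRNA (listed as Arntl) matched the labels. Its level was 12.6 and 13.2 FPKM at CT2 and 0.195 and 0.0919 FPKM at CT10 in WT, whereas the ΔRRE libraries ranged from 2.096 to 4.21 FPKM. The summed level of 5 hepatocyte markers was 27790 to 42509 FPKM in WT and 25416 to 38162 FPKM in ΔRRE, with all 5 present in every library. The summed level of 4 acute phase genes was 58.1 to 662 FPKM in WT and 61.9 to 2306 FPKM in ΔRRE, and that of 3 blood markers 273 to 940 FPKM in WT and 301 to 2766 FPKM in ΔRRE. Of the latter, the globin genes Hbb-bs and Hba-a1 were 0.67 and 0.69 log2 units higher in ΔRRE, averaged over the time points (adjusted p = 0.531 and 0.488, limma). The part of the globin genes in the results was not tested. The precision of each value is limited by the 2 livers per group, and the p-values measure only the spread between these libraries. In whole liver, fewer cells of a type and less RNA per cell cannot be told apart.

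Cholesterol is built from acetyl-CoA by way of mevalonate, isoprenoids, squalene and lanosterol. When the membrane of the endoplasmic reticulum is poor in sterol, the escort protein SCAP carries SREBP2 to the Golgi, where it is cut and released to activate the enzyme genes; when sterol is plentiful, the INSIG proteins hold SCAP back. Oxysterols activate the nuclear receptor LXR, which raises the genes of sterol efflux, and hepatocytes dispose of cholesterol into bile through the ABCG5-ABCG8 transporter.

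Short stretches of promoter are shown because many genes of the pathway are known targets of SREBP2, and the deletion concerns the clock. In RefSeq windows (GRCm38.p6) from 250 bases before to 50 after a gene's start, 26 of the 32 genes were matched, with 34 windows. The sterol element, spelled TCACNCCAC and searched on both strands, was found in 1.24% of all 32851 windows and in 1 of these 34, that of Hmgcs1. The E-box CACGTG, a palindrome bound by CLOCK-BMAL1, was found in 7.15% of all windows and in 6 of these 34, which belong to 5 genes. The Scap site lay in overlapping windows and was counted for each. The RRE consensus named by the study was found in 0.384% of all windows and in 0 of these 34. The windows below run 5′ to 3′ on the strand of the gene, with the motif in capitals.
Hmgcs1 (chr13:119690204-119690233, plus strand): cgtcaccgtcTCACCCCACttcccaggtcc
Hsd17b7 (chr1:169969331-169969360, minus strand): ggacccttgtgtCACGTGgctccgcccctc
Insig1 (chr5:28071299-28071328, plus strand): gctgggtgaggtCACGTGgctccggtggca
Dhcr7 (chr7:143823223-143823252, plus strand): cgctgtgatgaaCACGTGgcaaaaagcagc
Sc5d (chr9:42264381-42264410, minus strand): ctacgcggcgacCACGTGaccgccgcgacc
Scap (chr9:110333304-110333333, plus strand): cgccgccgggagCACGTGtggagggcggcg
A match of letters describes the window and does not show that a factor binds there. The lack of a match does not show that a site is absent, since only these spellings and windows were searched. Of the 6 genes with a motif shown, Hmgcs1 and Scap were rhythmic in the joint test described next, and the other 4 were not called. Of all genes tested, 30.6% were rhythmic in it, and a relation of motif and rhythm was not tested.

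A 24 h cosine was fitted to log2(FPKM + 0.1) with limma, with 1 rhythm shared by both genotypes and a mean level for each. Rhythms that peak at different times in WT and ΔRRE partly cancel in such a fit. A gene that was not called in it may therefore still cycle within a genotype. Under this joint test, 11 of the 32 genes (34.4%) were rhythmic at an adjusted p under 0.05. The share was near that of all genes tested, 30.6%. The rhythmic genes were Acly, Acat2, Hmgcs1 and Pmvk among the 20 enzymes, Insig2 and Scap of SREBP control, Npc1 of transport, and all 4 genes of the LXR and efflux group (Nr1h3, Soat2, Abcg5 and Abcg8). The calls of all 11 held under each of the 32 alternative settings, including 24 in which 1 library was left out, whereas each of the other 21 genes was called in at most 2 settings. The fitted peaks of the 4 enzymes and of Insig2 and Nr1h3 lay between CT20.7 and CT1.15. The peaks of Scap, Soat2, Abcg8, Npc1 and Abcg5 lay between CT5.04 and CT8.74.

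**Figure D1:**
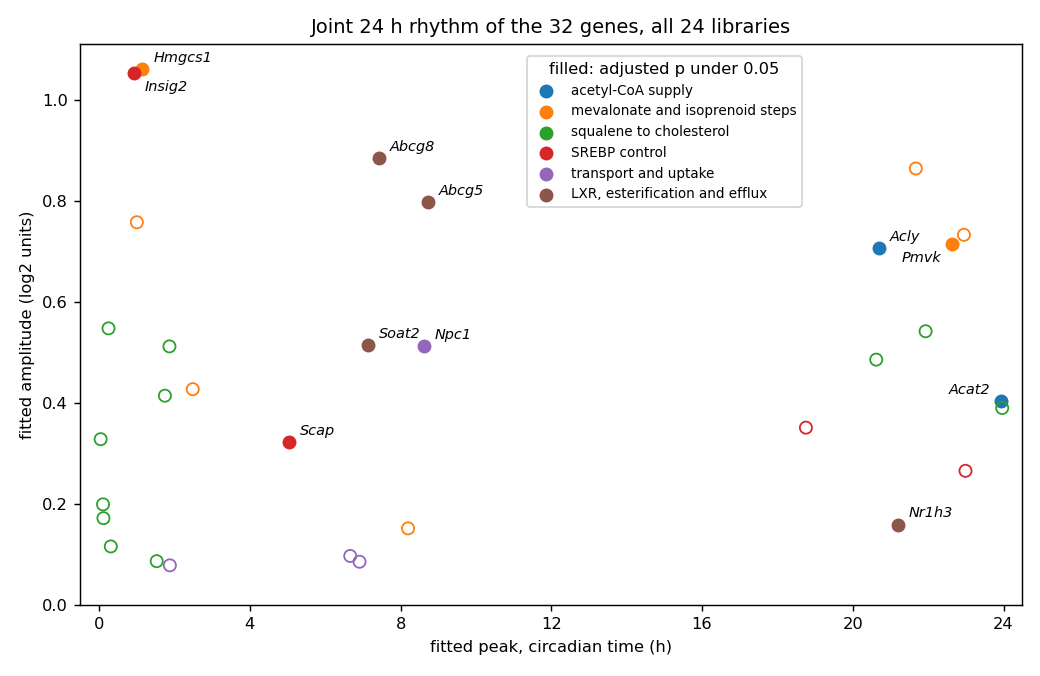
Fitted peak (x axis, circadian time in hours) and amplitude (y axis, log2 units) of the joint 24 h rhythm for the 32 genes, with colours for their roles. Filled points are the 11 genes with an adjusted p under 0.05 (limma): 6 lie from CT20.7 to CT1.15, and 5, led in amplitude by Abcg8 (0.88) and Abcg5 (0.80), from CT5.04 to CT8.74.

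Insig2, which encodes an endoplasmic reticulum protein that retains SCAP, had the smallest p of the group. In WT its libraries had 118 and 99.1 FPKM at CT2, 50.7 and 82.4 at CT6, 34.7 and 16.4 at CT10, 19.5 and 22.3 at CT14, 60.3 and 36.9 at CT18, and 104 and 86.3 at CT22. In ΔRRE they had 100.9 and 119.9 FPKM at CT2, 90.5 and 83.4 at CT6, 38.2 and 51.5 at CT10, 45.9 and 35.4 at CT14, 47.9 and 53.7 at CT18, and 124 and 93.9 at CT22. The libraries of CT22 and CT2 were thus high in both genotypes and those of CT10 and CT14 low, and the ΔRRE libraries lay above the WT libraries without overlap at CT6, CT10 and CT14 while they overlapped at the other times. With 2 libraries per group, such a separation arises easily without a difference between the genotypes. Here and below it is a description, and its share over all genes was not counted. The joint amplitude was 1.05 ± 0.09 (SE) log2 units, with a peak at CT0.92 ± 0.34 h (SE) and an adjusted p of 8.40e-08 (limma). The amplitude was 1.28 ± 0.13 (SE, n = 12 libraries) in WT and 0.84 ± 0.08 (SE, n = 12 libraries) in ΔRRE on the log2 scale.

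The difference in rhythm between the genotypes gave an unadjusted p of 0.0319 for Insig2, and an adjusted p of 0.9999 by limma. Averaged over the time points, Insig2 was 0.43 ± 0.14 (SE) log2 units higher in ΔRRE (unadjusted p = 0.00517, adjusted p = 0.388 by limma), the largest positive difference among the 32 genes. At CT10 and CT14 the log2 differences were 0.89 and 0.95 (SE 0.31). These differences did not pass the adjustment over 11244 genes.

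Its paralog Insig1, itself a classical SREBP target, followed another course. Insig1 ranged from 61.0 to 312 FPKM in WT, with a median of 146, and from 51.8 to 248 FPKM in ΔRRE, with a median of 167. At CT14, where Insig2 was low, Insig1 stood at 264 and 241 FPKM in WT and at 206 and 247 FPKM in ΔRRE. The joint cosine of Insig1 had an amplitude of 0.35 ± 0.20 (SE) log2 units and did not pass the test (adjusted p = 0.367, limma).

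Scap, the escort of SREBP, was rhythmic with a small amplitude. WT livers had 26.9 and 28.0 FPKM at CT2, 37.6 and 34.5 at CT6, 37.7 and 27.4 at CT10, 16.7 and 22.3 at CT14, 19.7 and 22.6 at CT18, and 25.2 and 25.9 at CT22. ΔRRE livers had 34.5 and 30.4 FPKM at CT2, 28.5 and 32.3 at CT6, 35.2 and 29.98 at CT10, 24.0 and 21.4 at CT14, 24.99 and 22.1 at CT18, and 27.5 and 32.1 at CT22. The libraries of CT14 and CT18 were the low ones in both genotypes, and the genotypes overlapped at CT10, CT14 and CT18. Its joint amplitude was 0.32 ± 0.06 (SE) log2 units, with a peak at CT5.04 and an adjusted p of 0.000657 (limma). Srebf2, the gene of SREBP2 itself, stayed between 7.08 and 18.1 FPKM in WT and between 6.85 and 17.5 FPKM in ΔRRE, and its joint rhythm was not called (amplitude 0.27 ± 0.09 SE, adjusted p = 0.0774, limma).

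Abcg5 and Abcg8, the 2 subunits of the sterol exporter of the canalicular membrane, peaked in the subjective afternoon. In WT, Abcg5 had 41.6 and 29.1 FPKM at CT2, 39.6 and 30.3 at CT6, 46.2 and 53.7 at CT10, 37.3 and 57.0 at CT14, 30.03 and 10.3 at CT18, and 30.03 and 26.04 at CT22. In ΔRRE it had 24.7 and 41.6 FPKM at CT2, 77.7 and 50.7 at CT6, 124 and 66.6 at CT10, 72.2 and 34.1 at CT14, 13.1 and 22.7 at CT18, and 39.8 and 18.0 at CT22. The ΔRRE libraries lay above the WT libraries at CT6 and CT10, and the genotypes overlapped at the other 4 times.
Abcg8 had in WT 27.8 and 22.5 FPKM at CT2, 26.8 and 21.8 at CT6, 35.7 and 34.4 at CT10, 15.3 and 31.2 at CT14, 14.7 and 5.44 at CT18, and 22.2 and 19.7 at CT22. In ΔRRE, Abcg8 had 15.1 and 29.0 FPKM at CT2, 50.7 and 34.6 at CT6, 71.9 and 44.0 at CT10, 33.5 and 17.3 at CT14, 6.10 and 9.92 at CT18, and 30.6 and 13.4 at CT22. Both subunits were thus lowest at CT18 and highest around CT10, and Abcg8 showed the same separation of the genotypes at CT6 and CT10 as Abcg5.

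The fitted joint amplitude was 0.80 ± 0.16 (SE) log2 units for Abcg5 (peak CT8.74, adjusted p = 0.00185, limma) and 0.88 ± 0.17 (SE) for Abcg8 (peak CT7.42, adjusted p = 0.00175, limma). On the same scale the fitted amplitude of Abcg5 was 0.53 ± 0.20 (SE, n = 12) in WT and 1.06 ± 0.21 (SE, n = 12) in ΔRRE. That of Abcg8 was 0.65 ± 0.21 (SE, n = 12) in WT and 1.13 ± 0.24 (SE, n = 12) in ΔRRE. The difference in rhythm had an adjusted p of 0.9999 for both subunits (limma). The mean log2 difference of ΔRRE minus WT was 0.27 ± 0.20 (SE) for Abcg5 and 0.19 ± 0.20 (SE) for Abcg8, with adjusted p of 0.751 and 0.858 (limma). The difference of Abcg8 was 0.11 without ΔRRE CT10 replicate 1 and 0.29 without WT CT18 replicate 1. All 4 acute phase genes were also higher in ΔRRE at the times at which the subunits were separated, with log2 differences of 1.26 to 3.27 at CT6 and 2.18 to 3.78 at CT10 (SE 0.91 to 1.70), and at CT14, where Insig2 was separated too, of 1.001 to 1.71. The globin genes Hbb-bs and Hba-a1 had log2 differences of -0.52 and -0.39 at CT6 and of 1.29 and 1.22 at CT10. At CT14 they had 1.82 and 1.78 (SE 0.67 and 0.63). The part of the acute phase and globin genes in these differences was not tested. The gene ranges overlap on opposite strands of chr17:84676302-84683011 (GRCm38) and it is not stated whether reads were counted by strand, so reads could be shared between these 2 genes.

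Soat2, which esterifies cholesterol in hepatocytes, kept a similar time. It had 17.7 and 12.7 FPKM at CT2, 23.8 and 18.2 at CT6, 24.6 and 14.5 at CT10, 15.4 and 10.9 at CT14, 8.84 and 8.37 at CT18, and 14.3 and 9.67 at CT22 in WT. In ΔRRE, Soat2 had 17.2 and 11.4 FPKM at CT2, 27.1 and 17.9 at CT6, 23.7 and 18.6 at CT10, 17.2 and 10.7 at CT14, 13.3 and 10.4 at CT18, and 13.7 and 13.6 at CT22. The lowest WT libraries were those of CT18, and the genotypes overlapped at all times but CT18. Its joint amplitude was 0.51 ± 0.08 (SE) log2 units with a peak at CT7.14 (adjusted p = 0.000264, limma).

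Npc1, which moves cholesterol out of the lysosome, was highest at CT10. WT libraries had 17.9 and 14.9 FPKM at CT2, 23.6 and 20.4 at CT6, 39.8 and 27.1 at CT10, 17.7 and 19.3 at CT14, 13.0 and 16.3 at CT18, and 16.5 and 13.1 at CT22. ΔRRE libraries had 19.1 and 15.7 FPKM at CT2, 26.4 and 19.2 at CT6, 35.5 and 31.0 at CT10, 17.0 and 17.8 at CT14, 13.8 and 11.1 at CT18, and 17.2 and 18.3 at CT22. The 4 libraries of CT10 were the highest of all 24, and the genotypes overlapped at all times but CT22. The joint amplitude was 0.51 ± 0.08 (SE) log2 units with a peak at CT8.61 (adjusted p = 0.000142, limma). The other 3 transport genes were not rhythmic in the joint test. Npc2, the soluble partner of NPC1 in the lysosome, ranged from 14.1 to 21.9 FPKM in WT and from 15.1 to 25.7 FPKM in ΔRRE, and Mylip, an LXR target whose product degrades lipoprotein receptors, from 0.898 to 2.00 and from 1.02 to 2.16 FPKM. Stard4, a carrier of cholesterol in the cytosol, ranged from 16.9 to 36.5 FPKM in WT and from 12.5 to 28.2 FPKM in ΔRRE. The fitted peak of Stard4 was CT7.66 in WT and CT21.6 in ΔRRE. Its amplitude was 0.29 ± 0.11 (SE) and 0.32 ± 0.14 (SE) log2 units there, beside 0.08 ± 0.11 (SE) jointly. Neither fit of Stard4 within a genotype passed the adjusted test.

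Nr1h3, the gene of LXRα, was nearly flat, with little spread between libraries. In WT it had 37.1 and 38.1 FPKM at CT2, 35.0 and 33.0 at CT6, 27.9 and 34.6 at CT10, 33.7 and 30.5 at CT14, 40.2 and 46.0 at CT18, and 37.0 and 38.0 at CT22. In ΔRRE it had 35.6 and 41.2 FPKM at CT2, 34.9 and 34.4 at CT6, 33.7 and 30.8 at CT10, 36.6 and 35.9 at CT14, 38.5 and 41.2 at CT18, and 35.6 and 40.6 at CT22. The genotypes overlapped at all times but CT14, where the ΔRRE libraries were higher. The joint amplitude was 0.16 ± 0.04 (SE) log2 units with a peak at CT21.2 (adjusted p = 0.00636, limma), and its SD within groups, 0.106 log2 units, was above that of 3.15% of the genes tested.

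**Figure D2:**
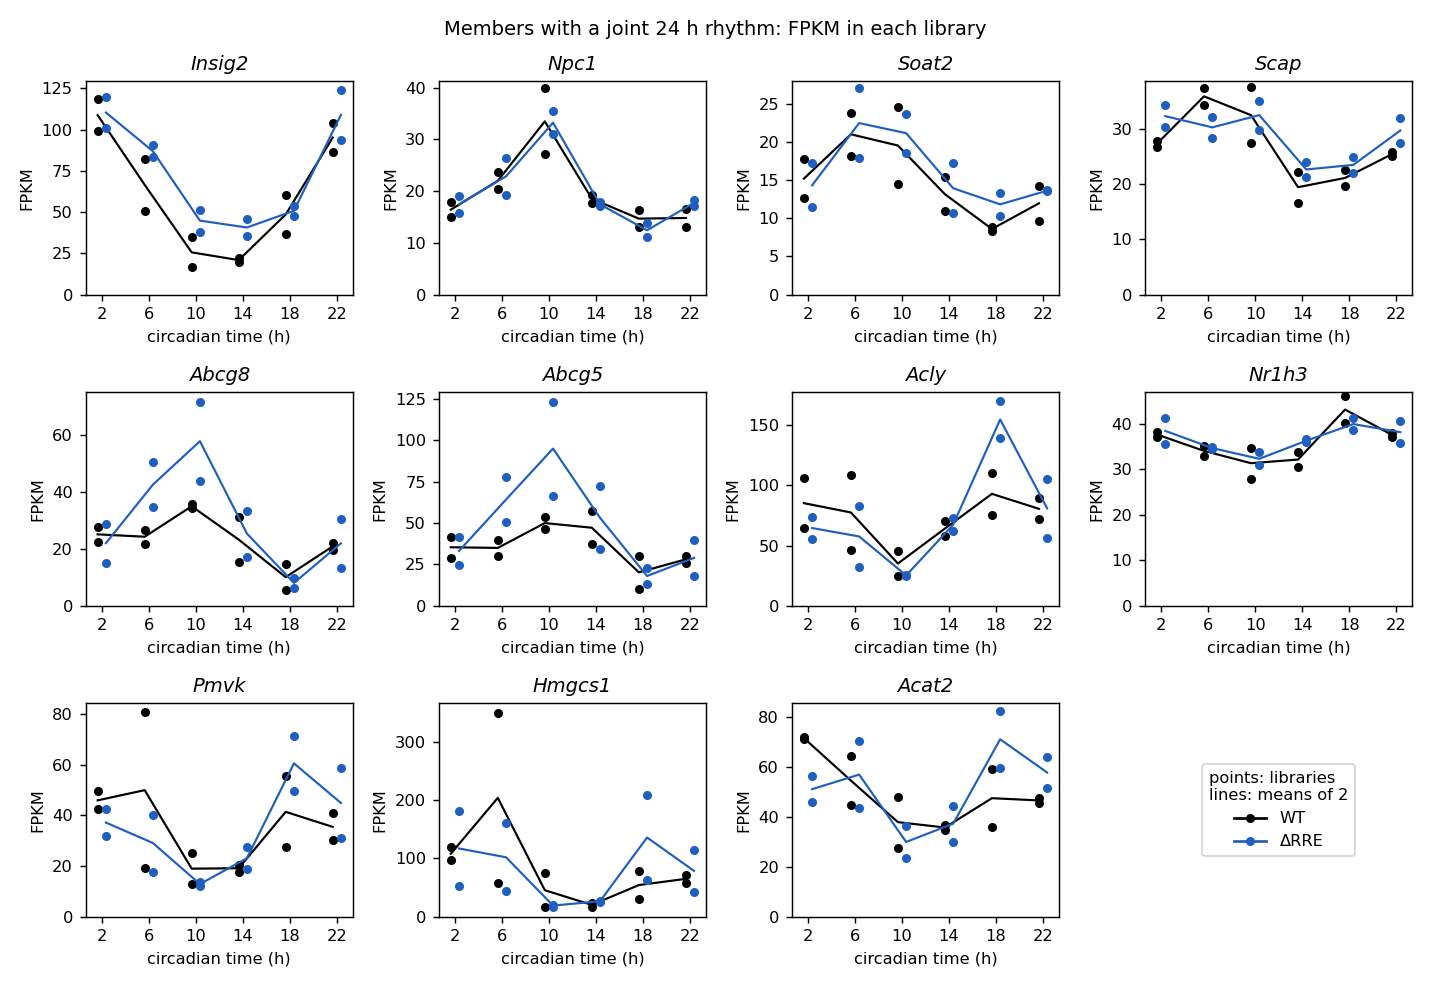
FPKM (y axis, linear from 0) against circadian time in hours (x axis) for the 11 genes with a joint rhythm. Points are single libraries, lines join the means of 2 libraries, black is WT and blue ΔRRE. Insig2 falls to its low at CT10 and CT14, and Abcg5 and Abcg8 are highest in ΔRRE at CT10, where Abcg5 had 124 and 66.6 FPKM.

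Of the 20 enzymes, the first in the path are Acly, which makes cytosolic acetyl-CoA from citrate, and Acat2, a thiolase that joins 2 acetyl-CoA. Acly had 64.6 and 106 FPKM at CT2, 109 and 46.1 at CT6, 45.4 and 24.7 at CT10, 70.5 and 57.8 at CT14, 75.5 and 111 at CT18, and 71.9 and 89.2 at CT22 in WT. In ΔRRE it had 55.4 and 73.8 FPKM at CT2, 31.95 and 83.2 at CT6, 25.4 and 24.9 at CT10, 72.5 and 62.1 at CT14, 170.4 and 139.5 at CT18, and 56.7 and 105 at CT22. CT10 was the low point in both genotypes, and the genotypes overlapped at all times but CT18, where the ΔRRE libraries were higher. Its joint amplitude was 0.71 ± 0.16 (SE) log2 units with a peak at CT20.7 (adjusted p = 0.00537, limma).
Acat2 had 71.9 and 70.9 FPKM at CT2, 64.1 and 44.7 at CT6, 48.0 and 27.7 at CT10, 34.7 and 36.6 at CT14, 35.9 and 58.9 at CT18, and 47.6 and 45.4 at CT22 in WT. In ΔRRE it had 56.1 and 45.9 FPKM at CT2, 43.5 and 70.1 at CT6, 36.4 and 23.4 at CT10, 44.3 and 30.03 at CT14, 82.3 and 59.5 at CT18, and 51.5 and 63.7 at CT22. At CT2 the ΔRRE libraries lay below the WT libraries and at CT18 and CT22 above them. The joint amplitude of Acat2 was 0.40 ± 0.11 (SE) log2 units with a peak at CT23.9 (adjusted p = 0.0166, limma).

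Hmgcs1, the cytosolic synthase that makes HMG-CoA for the mevalonate pathway, varied widely. Its WT libraries had 96.7 and 119 FPKM at CT2, 349 and 58.4 at CT6, 74.4 and 16.7 at CT10, 23.1 and 17.6 at CT14, 30.005 and 78.7 at CT18, and 71.9 and 58.1 at CT22. Its ΔRRE libraries had 180.5 and 53.5 FPKM at CT2, 43.8 and 160 at CT6, 17.6 and 20.8 at CT10, 27.5 and 25.7 at CT14, 209 and 62.3 at CT18, and 42.3 and 115 at CT22. The WT CT6 pair differed most, and the genotypes overlapped at all times but CT14. The joint fit gave an amplitude of 1.06 ± 0.27 (SE) log2 units with a peak at CT1.15 (adjusted p = 0.0148, limma).
Pmvk, the kinase that makes mevalonate diphosphate, had 42.3 and 49.5 FPKM at CT2, 80.7 and 19.1 at CT6, 25.1 and 12.9 at CT10, 20.6 and 17.7 at CT14, 27.4 and 55.3 at CT18, and 30.2 and 40.7 at CT22 in WT. In ΔRRE it had 42.4 and 31.9 FPKM at CT2, 17.8 and 40.3 at CT6, 12.002 and 13.8 at CT10, 27.5 and 18.7 at CT14, 71.3 and 49.7 at CT18, and 31.2 and 58.5 at CT22. It was low at CT10 and CT14 in both genotypes, which overlapped at every time point. The joint amplitude was 0.71 ± 0.17 (SE) log2 units with a peak at CT22.6 (adjusted p = 0.00764, limma).

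The other 5 genes of the mevalonate and isoprenoid steps were not rhythmic in the joint test. Mvk, the mevalonate kinase, ranged from 4.71 to 27.6 FPKM in WT and from 5.07 to 19.7 in ΔRRE, and Mvd, which decarboxylates mevalonate diphosphate, from 2.51 to 25.7 and from 0.877 to 35.2. Idi1, the isomerase of the isoprenoid units, ranged from 10.9 to 196 FPKM in WT and from 8.03 to 91.8 in ΔRRE, and Fdps, the farnesyl diphosphate synthase, from 33.1 to 400.2 and from 23.8 to 296. Ggps1, which leads farnesyl diphosphate away to geranylgeranyl diphosphate, stood apart with 2.27 to 4.19 FPKM in WT and 2.33 to 4.62 FPKM in ΔRRE.

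None of the 11 genes from squalene to cholesterol was rhythmic in the joint test by limma, and their adjusted p ranged from 0.0819 (Sc5d) to 0.673 (Hsd17b7). The shared wave understates rhythms whose peaks differ between the genotypes. The median amplitude of the 11 was 0.39 log2 units jointly, 0.46 in WT and 0.46 in ΔRRE. Their median peak difference, ΔRRE minus WT, was -5.82 h. None of the 11 was called within either genotype alone at an adjusted p under 0.05 (limma). Sqle, the squalene epoxidase that is a second control point of the path, ranged from 4.22 to 59.1 FPKM in WT and from 2.27 to 51.5 FPKM in ΔRRE. Fdft1 (squalene synthase) reached 77.7 FPKM in WT and 74.7 in ΔRRE, Lss (lanosterol synthase) 38.7 and 30.6, and Cyp51 (lanosterol demethylase) 106 and 63.0. Msmo1 and Nsdhl, which take part in the removal of the C4 methyl groups, reached 211 and 57.4 FPKM in WT and 135 and 38.8 FPKM in ΔRRE, and the ketoreductase Hsd17b7 of the same complex 28.5 and 23.0. Sc5d, the desaturase, had medians of 143 FPKM in WT and 126 in ΔRRE, and Dhcr7, a last reductase of the path, medians of 26.3 and 29.8. Ebp, the sterol isomerase, and Tm7sf2, a sterol reductase with a counterpart in the nuclear envelope, varied the least of these: the highest library was 1.56-fold above the lowest for Ebp and 2.06-fold for Tm7sf2, beside 26.002-fold for Sqle. Fdft1, Cyp51, Ggps1 and Npc1 overlap a neighbouring gene on the opposite strand by at most 967 bases, and Fdps and Tm7sf2 overlap another gene on the same strand, so that some of their reads could belong to the neighbour.

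**Figure D3:**
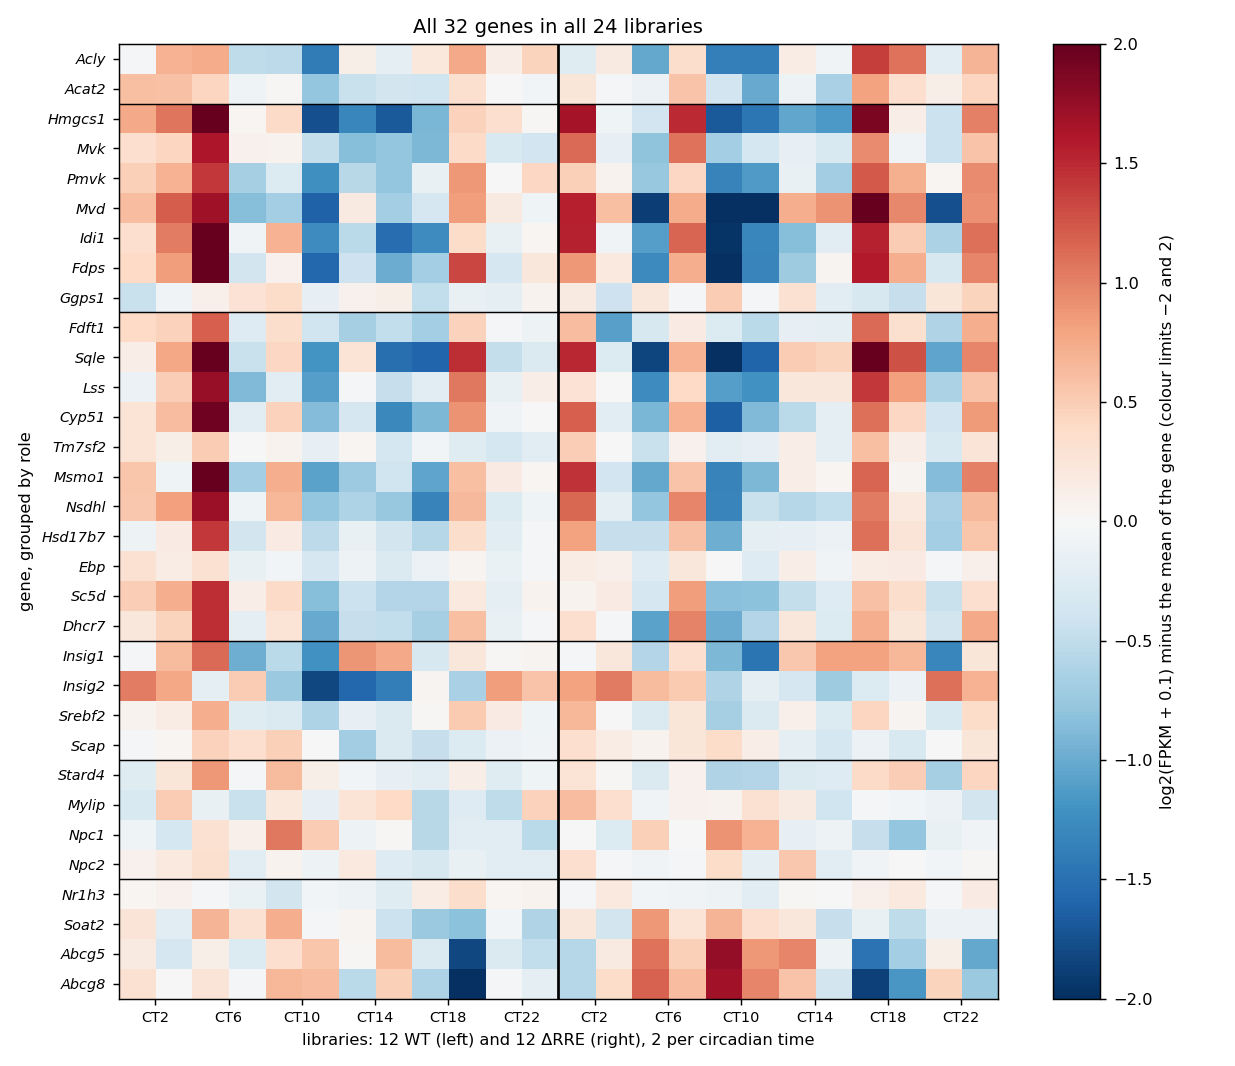
Levels of all 32 genes (rows, grouped by role from acetyl-CoA supply at the top to efflux at the bottom) in all 24 libraries (columns, WT left and ΔRRE right, replicate 1 left of replicate 2 at each circadian time), as log2(FPKM + 0.1) minus the mean of each gene. Most enzyme rows share the same pattern of high and low libraries, above all in the WT CT6 pair. Insig2, Npc1, Abcg5 and Abcg8 were rhythmic in the joint test, as were the enzymes Acly, Acat2, Hmgcs1 and Pmvk. Abcg5 and Abcg8 also differed between replicates, with an SD within groups of 0.579 and 0.568 log2 units.

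Within groups, most enzyme genes were high or low in the same livers. The mean log2(FPKM + 0.1) of the 20 enzymes in a library ranged from 3.68 (ΔRRE CT10 replicate 1) to 6.30 (WT CT6 replicate 1), a 6.16-fold difference of geometric means. In the WT CT6 group the enzyme mean was 6.30 in replicate 1 and 4.57 in replicate 2, which is 3.31-fold, and 19 of 20 enzymes differed in that direction. The WT CT6 replicate 1 library held the highest level of 14 of the 20 enzymes. Replicates also differed 2.69-fold in ΔRRE CT6, 2.29-fold in WT CT18, 2.24-fold in ΔRRE CT22 and 2.14-fold in WT CT10, each with 19 or 20 of the 20 enzymes in 1 direction. By contrast the pair of ΔRRE CT14 differed 1.04-fold and that of WT CT22 1.08-fold.

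Over the 12 groups, the deviations of the libraries from their group means correlated among the enzymes. The 2 deviations of a group mirror each other, so they hold 12 separate differences. The median Pearson r of these deviations was 0.862 over 190 pairs of enzyme genes, and r was over 0.5 for 172 of the pairs. The share over all pairs of genes tested was not counted. After rescaling of the libraries the median r of the enzymes was 0.852. These correlations describe shared libraries and carry no test. The SD within groups had a median of 0.708 log2 units over the enzymes, beside 0.247 over all genes tested. Sqle had an SD of 1.25, above that of 99.0% of genes, followed by Idi1 with 1.08, Mvd with 1.05, Hmgcs1 with 1.03 and Msmo1 with 1.02. Ebp had 0.177. Outside the enzymes, Insig1 had 0.624, Abcg5 0.579 and Abcg8 0.568, above that of 93.9%, 92.3% and 91.9% of genes.

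Genes outside the enzymes were set beside the enzyme mean in the same deviations of the libraries from their group means. Srebf2 had an r of 0.925, Stard4 0.843 and Insig1 0.814. Scap had 0.593, Npc2 0.446, Mylip 0.364, Npc1 0.317, Soat2 0.223 and Nr1h3 0.00946. How often such values arise over all genes tested was not counted. The efflux genes had a negative r, with -0.583 for Abcg5 and -0.573 for Abcg8, and Insig2 had -0.339. Srebf1, the gene of the SREBP form known for fatty acid synthesis, had -0.165, whereas the mean of 15 fatty acid synthesis genes had 0.651. Other measures were set beside the same deviations. The sum of FPKM of the library had an r of -0.716, the hepatocyte markers 0.720, the endothelial markers 0.667, the stellate markers 0.355, the Kupffer cell markers 0.272 and the acute phase genes -0.152. Their part in the spread of the enzymes was not tested.

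**Figure D4:**
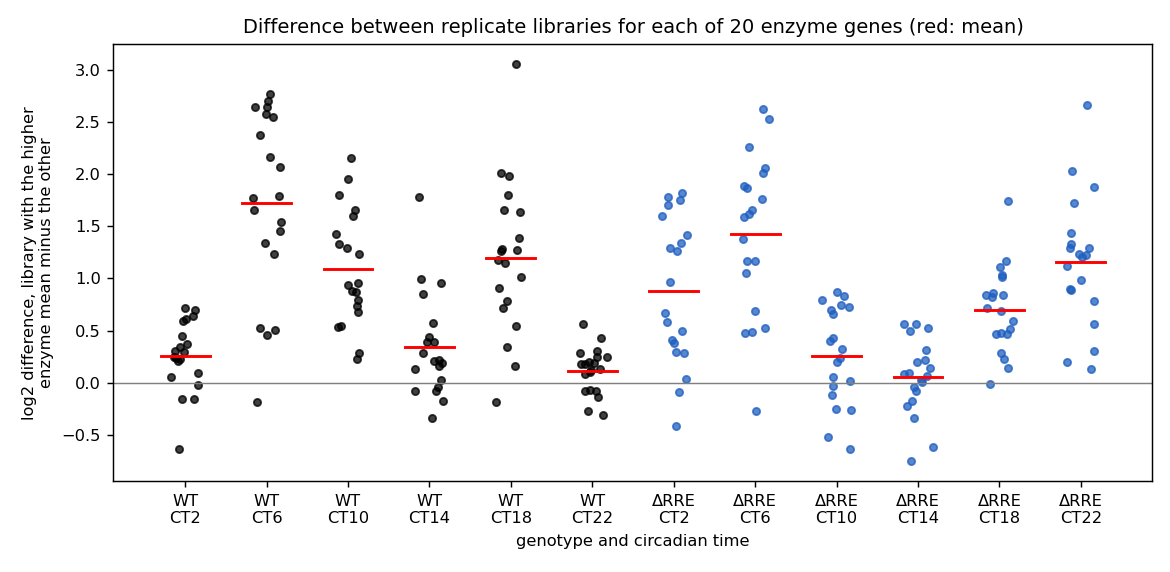
Difference in log2(FPKM + 0.1) between the 2 libraries of each group (y axis) for each of the 20 enzyme genes (points), taken as the library with the higher enzyme mean minus the other, for the 6 WT groups (black) and the 6 ΔRRE groups (blue); red bars are means. The means run from 0.054 in ΔRRE CT14 to 1.73 in WT CT6, and in 6 groups at least 19 of 20 genes lie above 0.

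Within each genotype taken alone, 4 of the 32 genes were rhythmic at an adjusted p under 0.05 in WT (Insig2, Npc1, Soat2 and Scap), beside 10.3% of all genes. In ΔRRE 4 were rhythmic (Insig2, Abcg5, Abcg8 and Pmvk), beside 4.57% of all genes. Both counts changed with single libraries: that of WT was 8 without WT CT18 replicate 2, and that of ΔRRE fell to 1 without any of ΔRRE CT6 replicate 1 or either library of CT10 or CT18 and was 8 without ΔRRE CT22 replicate 1. By the looser criteria of the study, with the p of the cosine in place of its own, 21 genes cycled in WT beside 37.0% of all genes, 23 in ΔRRE beside 35.4%, and 19 in both beside 22.9%. Of the 20 enzymes these were 13, 15 and 12.

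The rhythm differed between the genotypes for 0 of the 32 genes at an adjusted p under 0.05 (limma), beside 0.00889% of all genes, which is 1 gene. Unadjusted, 3 had a p under 0.05 (Stard4 with 0.0180, Insig2 with 0.0319 and Tm7sf2 with 0.0337), beside 2.84% of all genes. The mean level differed for 0 of the 32 at an adjusted p under 0.05 (limma), as for 0% of all genes, and before adjustment for 1, Insig2, beside 8.91% of all genes (7.16% higher and 1.75% lower in ΔRRE). At any of the time points 0 of the 32 differed after adjustment (limma), beside 0.0356% of all genes, and 1 did before adjustment, again Insig2, beside 4.21%. The mean log2 differences of ΔRRE minus WT ran from -0.16 to 0.43, with a median of 0.01 beside 0.04 over all genes, and 17 of the 32 were above 0 beside 65.5% of all genes. Below 0 the farthest were Stard4 with -0.16 ± 0.15 (SE, adjusted p = 0.816), Sc5d with -0.14 ± 0.19 (SE, adjusted p = 0.896) and Insig1 with -0.11 ± 0.22 (SE, adjusted p = 0.932), by limma. When single libraries were left out, Stard4 ran from -0.24 (without ΔRRE CT22 replicate 2) to -0.09 (without WT CT10 replicate 1) and Sc5d from -0.23 (without WT CT18 replicate 1) to -0.04 (without WT CT6 replicate 1). The sign for Insig1 turned to 0.02 without WT CT6 replicate 1 and to 0.01 without ΔRRE CT22 replicate 1.

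Time point by time point, the number of enzymes on each side of 0 varied, and leaving out a single liver could turn the side at CT2, CT6 and CT22. ΔRRE was lower for 11 of 20 enzymes at CT2, 19 at CT6 and 18 at CT10, beside 41.1%, 46.7% and 49.2% of all genes, with median log2 differences of -0.06, -0.70 and -0.49. It was lower for 1 enzyme at CT14, 1 at CT18 and 4 at CT22, beside 41.6%, 32.4% and 44.6% of all genes, with medians of 0.39, 0.75 and 0.22. The 20 genes shared the same livers, so these are not 20 separate observations, and the enzyme means of the genotypes overlapped at all times but CT14. Without WT CT6 replicate 1 the count at CT6 was 3 of 20 and the median 0.15, and without ΔRRE CT6 replicate 1 they were 9 of 20 and 0.03. At CT14 the count was 5 of 20 and the median 0.12 without WT CT14 replicate 2, and 5 of 20 and 0.30 without ΔRRE CT14 replicate 1. The median at CT10 was -0.04, with 13 enzymes lower, without WT CT10 replicate 1, that at CT18 was 0.14, with 5 lower, without WT CT18 replicate 1, and that at CT22 was -0.43, with 17 enzymes lower, without ΔRRE CT22 replicate 2. At CT2 the median was -0.51, with 20 enzymes lower, without ΔRRE CT2 replicate 1 and 0.37, with 5 lower, without ΔRRE CT2 replicate 2.

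**Figure D5:**
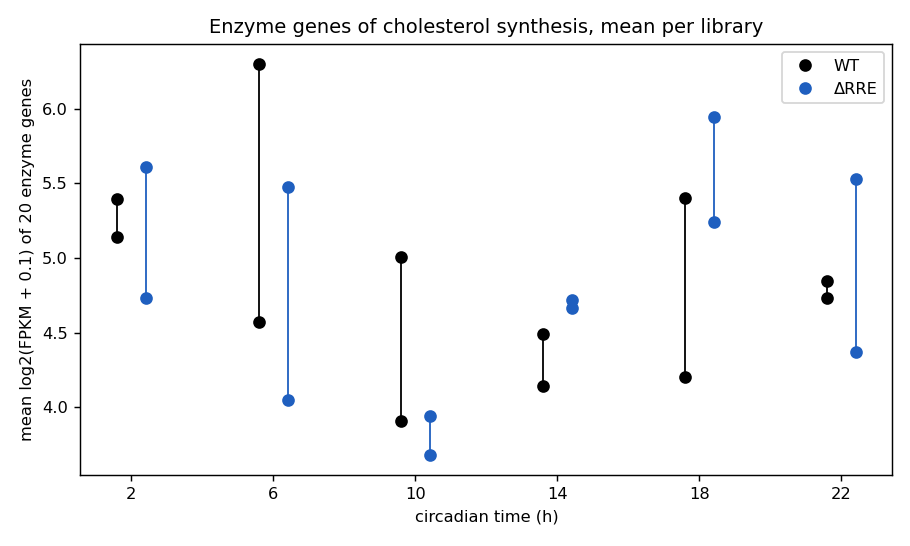
Mean log2(FPKM + 0.1) of the 20 enzyme genes (y axis) in each library against circadian time in hours (x axis); points are libraries and lines join the 2 libraries of a group, black for WT and blue for ΔRRE. The replicates span up to 1.73 log2 units, and the genotypes are apart only at CT14.

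The fitted peak lay earlier in ΔRRE than in WT for 20 of the 20 enzymes, beside 47.1% of all genes, with a median of -4.94 h. Leaving out single libraries left this count at 20 of 20 and moved the median from -6.27 h (without ΔRRE CT6 replicate 2) to -3.15 h (without WT CT6 replicate 1). For Hmgcs1 the fitted peaks were CT2.62 ± 1.04 h (SE) in WT and CT23.5 ± 1.28 h (SE) in ΔRRE, and for Sqle CT3.83 ± 2.67 h (SE) and CT20.0 ± 1.36 h (SE). The enzymes shared the same livers, none of them passed the adjusted test of a difference in rhythm, and of their fits within a genotype only that of Pmvk in ΔRRE passed the adjusted test, so that most of these peaks belong to rhythms that were not called.

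Other genes that handle sterols were set beside these 32. Of 30 genes of sterol handling outside them, 26 were tested, and 8 (30.8%) were rhythmic in the joint test, beside 30.6% of all genes. Among them were Por (amplitude 0.94 log2 units, peak CT12.4), the reductase that feeds electrons to CYP51 and other P450 enzymes, Lipa (0.38, CT23.6), the lysosomal acid lipase, and Stard5 (0.28, CT12.7). Of 16 genes of fatty acid synthesis 15 were tested, and 10 (66.7%) were rhythmic, led by Elovl3 (2.43, CT23.9), Elovl5 (0.83, CT1.54), Thrsp (1.61, CT17.2) and Acacb (0.85, CT21.6). In each list 0 genes differed in mean level between the genotypes at an adjusted p under 0.05 by limma, beside 0% of all genes. At an unadjusted p under 0.05 by limma, 2 genes of each list did, beside 8.91% of all genes.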

How the data were processed

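Poly(A) RNA of 24 mouse livers was sequenced by the study (paired reads of a directional library). The authors deposited a table of FPKM values for each library, and counts or read depths were not used here, so the depth behind a value is unknown; the sums per library were 554170 to 624746 FPKM. Per the labels and the submitters' processing notes, the reads were trimmed with Trimmomatic 0.39, aligned to mm10 with HISAT2 2.1.0 and quantified with StringTie 1.3.5, and whether strand was used is not given in the sources used here. A deposited table of the whole series held the same values (1313592 of 1313592) and was not used.

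Genes averaging 1 FPKM or more were tested with limma 3.58.1 (R 4.3.3) on log2(FPKM + 0.1), so that fold changes of low genes are understated, with p-values adjusted by Benjamini-Hochberg over 11244 genes. The fits were a 24 h cosine and sine in all libraries with a mean per genotype (joint rhythm) or within each genotype, the genotype terms of that wave (rhythm difference), ΔRRE minus WT with time point as a factor (mean level), and an F-test over 6 time points. The study's criteria for a rhythm (p under 0.3, ratio of highest to lowest time-point mean above 1.5, largest SD within 1.5 times that difference) were applied with the limma p, since BIO_CYCLE was not run. The scripts were tested on simulated data. Genes with an adjusted p under 0.05 in any fit were given in every library, and the 3 largest genotype differences in each direction were named. The 32 genes and the lists were chosen with earlier results of these data known. Groups came from the labels, and no pair of libraries shared more than 0.038% of identical values. From each further list up to 4 genes with the smallest joint p were named, except for an item that is not reported here.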

Additional observations from a re-analysis of the deposited data

How the results depend on the processing

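The 11 joint rhythms stayed called under every setting tried: 1 or 0.01 FPKM added, no filter or one at 5 FPKM, rescaled libraries, a prior without trend, time point as a factor, a replicate block and each library left out. Leaving out single libraries gave 11 to 14 joint rhythms, 3 to 8 in WT, 1 to 8 in ΔRRE, 18 to 25 in WT and 16 to 27 in ΔRRE by the study's criteria, and 0 in each test between the genotypes. The WT count was 1 without a filter and 1 with time point as a factor. The ΔRRE count was 1 without a filter, 2 with a prior without trend and 2 with time point as a factor; it was 1 or 2 without any of 9 single ΔRRE libraries. The cause of these changes was not tested. The log2 genotype difference of Insig1, -0.11, ranged from -0.23 without WT CT6 replicate 2 to 0.0203 without WT CT6 replicate 1, and was 0.00808 without ΔRRE CT22 replicate 1. Rescaling moved the median log2 difference of all genes from 0.04 to -0.003.

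Replicate numbers were checked for pairing: the Pearson r of replicate differences between the genotypes was 0.206, -0.119, 0.0651, 0.0857, 0.198 and -0.0474 at CT2 to CT22. No pairing of the livers by number was evident from these values, and they cannot exclude one. With the replicate block the counts were 11 joint, 4 in WT, 4 in ΔRRE, 22 in WT and 23 in ΔRRE by the study's criteria, and 0 between the genotypes. With 2 livers per group and an enzyme spread of 0.708 log2 units (median SD), small differences of the enzymes were not detectable.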
